A study of Mus musculus with 147 samples.

Results

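The cytosolic heat shock chaperones described here are 10 genes of the 50686 in the deposited count tables: Hspa1a, Hspa1b, Hspa8, Hsph1, Hsp90aa1, Hsp90ab1, Dnajb1, Bag3, Hspd1 and Hspe1. They were taken by name, and all 10 were found in both tables. The label holds for 8 of them. Hspd1 and Hspe1 encode the chaperonin of mitochondria and its lid, and the counts and medians of members below include both. RNA of sorted mouse macrophages and blood monocytes had been sequenced in 147 libraries from 2 nutritional experiments. In the refeeding experiment, refed mice had fasted for 12 h and then eaten for 2 h, and fasted mice had fasted for 12 h only. It held, refed and fasted, 9 and 8 libraries each of adipose tissue macrophages, colonic macrophages, microglia and monocytes, 8 and 8 of peritoneal macrophages, and 7 and 6 each of islet macrophages and Kupffer cells (the macrophages of the liver), each made from 400 cells. In the diet experiment, mice had 8 weeks of high-fat diet with streptozotocin (STZ, which kills insulin-producing beta cells) at week 4, 8 weeks of high-fat diet alone (HFD), or a normal diet. It held, in that order, 4, 4 and 4 libraries of microglia (5000 cells each), 5, 4 and 5 of peritoneal macrophages (100000 cells) and 3, 4 and 4 of islet macrophages (400 cells). The sources used here do not give the strain, sex or age of the mice, or whether libraries of a group came from separate animals, so p-values measure the spread between these libraries.

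Heat shock proteins keep other proteins folded. HSP70 proteins bind unfolded stretches with the help of HSP40 partners such as Dnajb1 and are emptied by nucleotide exchange factors such as Hsph1 and Bag3, while HSP90 proteins finish the folding of kinases and receptors. Most of these genes are driven by heat shock factor 1, which binds repeats of the letters GAA and their complement TTC in alternating directions when unfolded proteins pile up. Hspa1a and Hspa1b are the strongly inducible HSP70 genes, and Hspa8 and Hsp90ab1 are made at high level in unstressed cells. The same genes also respond to the warming, digestion and delay of tissue dissociation, which is known for macrophages of solid tissues.

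All 6 general macrophage and monocyte markers examined, among them Csf1r, Cd68 and Adgre1, had counts in each of the 23 groups. The groups of microglia, Kupffer cells, peritoneal macrophages and monocytes each held counts of all 6 markers of their own type. Such counts show presence only and do not by themselves tell the populations apart. Refeeding libraries held 7915242 to 27315750 counts and diet libraries 11349232 to 34466388. For 4 libraries labelled refed (replicates 1_2 and 3 of islet macrophages, 1 and 2 of Kupffer cells) the description names fasting only, against their titles, and the islet, Kupffer and joint tests of refeeding are also given without them. The plots, the correlations and the other settings of those tests include them. Levels are CPM (read counts scaled to a common library total) on library sizes scaled within each experiment by the trimmed mean of M values, and fold changes are log2 values with their standard errors from edgeR, which passed a gene at a Benjamini-Hochberg adjusted p below 0.05 over all genes tested.

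The sequence before the start of these genes is shown first, since it holds the letters that heat shock factor 1 recognises. RefSeq windows of 250 bases before to 50 after a start (build GRCm38.p6) were at hand for 7 of the 10 members. Of all 32851 such windows, 15.1% held the 8-letter motif GAANNTTC or its counterpart TTCNNGAA (N is any base; both read the same on both strands). Windows of Hspa1a, Hspa1b, Hsph1, Bag3 and Hspe1 and 1 of 2 windows of Hspd1 held at least 1 match. The other window of Hspd1 and both of Dnajb1 held 0, which says only that these letters are not there. The upstream 250 bases of 4 members follow, 5′ to 3′ on the strand of the gene, with the matches in capitals. They lie at chr17:34972157-34972406 (minus strand) for Hspa1a, chr17:34959239-34959488 (minus) for Hspa1b, chr5:149636316-149636565 (minus) for Hsph1 and chr1:55087898-55088147 (plus) for Hspe1.
Hspa1a: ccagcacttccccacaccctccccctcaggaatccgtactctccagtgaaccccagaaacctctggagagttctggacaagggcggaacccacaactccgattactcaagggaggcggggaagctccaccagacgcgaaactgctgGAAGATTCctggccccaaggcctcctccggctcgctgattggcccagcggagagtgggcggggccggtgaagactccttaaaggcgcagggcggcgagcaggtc
Hspa1b: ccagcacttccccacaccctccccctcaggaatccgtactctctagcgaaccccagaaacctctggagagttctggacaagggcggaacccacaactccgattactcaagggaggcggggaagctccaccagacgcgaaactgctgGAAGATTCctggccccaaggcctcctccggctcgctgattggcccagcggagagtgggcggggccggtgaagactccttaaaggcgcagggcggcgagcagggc
Hsph1: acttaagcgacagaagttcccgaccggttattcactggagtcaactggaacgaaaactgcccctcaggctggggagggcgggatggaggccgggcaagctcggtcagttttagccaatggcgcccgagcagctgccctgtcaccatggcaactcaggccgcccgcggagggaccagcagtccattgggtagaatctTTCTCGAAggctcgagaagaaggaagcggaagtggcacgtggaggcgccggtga
Hspe1: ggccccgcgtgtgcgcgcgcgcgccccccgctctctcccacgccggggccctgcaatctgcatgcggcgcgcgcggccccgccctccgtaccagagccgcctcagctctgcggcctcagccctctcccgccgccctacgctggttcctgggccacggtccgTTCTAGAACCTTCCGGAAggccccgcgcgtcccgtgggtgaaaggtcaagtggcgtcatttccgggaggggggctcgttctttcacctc
The Hspa1a and Hspa1b stretches were alike at 247 of 250 positions and carried the same match, whose first base lies at -104 from the start. In Hspe1 the matches begin at -89, -84 and -79 and overlap, so that the capitals form a run of alternating repeats. The same bases lie in a window of Hspd1, read on the other strand. Matches just past the start stood in Hsph1 and were the only kind in Bag3, in stretches at chr5:149636276-149636305 (minus) and chr7:128523603-128523632 (plus).
Hsph1, past the start: gcagaTTCTGGAAAGTTCtcctcagtaggc
Bag3, past the start: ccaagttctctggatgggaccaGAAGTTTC
A match describes these letters and is no evidence of binding.

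Several members share sequence with other genes, which limits what their counts mean. Hspa1a (mm10, chromosome 17, 34969190 to 34972156, minus strand) shared 58.8% of its exonic 50-base stretches with Hspa1b (chromosome 17, 34956436 to 34959238, minus), so reads can be split between them and their sum is given too. Counting all 4 genes that share such stretches, the share of Hspa1a was 66.3%, and its exons overlap Gm20481 on the other strand. The sum therefore does not settle where all of its reads belong. In each population the counts assigned to Hspa1b were a small part of that sum. Hspa8 (chromosome 9, 40800984 to 40810087, plus) shared 39.4% with 16 genes, most with Gm15459, and its exons overlap the small nucleolar RNA genes Snord14c, Snord14d and Snord14e. Hsp90aa1 (chromosome 12, 110690605 to 110702728, minus) shared 47.5%, most with Gm12346, and Hspd1 42.1% with 10 genes, most with Hspd1-ps3. Hspe1 shared 22.8% with 7 genes, while Hsp90ab1 (chromosome 17, 45567775 to 45573271, minus) shared 3.44%. Hsph1 lies on chromosome 5 from 149614287 to 149636376 (minus), Dnajb1 on chromosome 8 from 83608193 to 83612653 (plus) and Bag3 on chromosome 7 from 128523616 to 128546981 (plus). Hspd1 (chromosome 1, 55077835 to 55088243, minus) and Hspe1 (55088132 to 55091307, plus) have exons that overlap, and since the sources used here do not give the strand setting of the counting, reads there may belong to either. Positions follow GENCODE M21.

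In fasted mice the level of every member differed among the 7 populations, and islet macrophages were highest and colonic macrophages the second for all 10. All 10 members passed edgeR's test for a difference among populations, where 49.4% of 16114 genes passed. Hspa1a averaged 3304 ± 1774 CPM in islet macrophages (SD, n = 6), 2562 ± 1809 CPM in colonic macrophages (n = 8), 1371 ± 243 CPM in Kupffer cells (n = 6) and 529 ± 202 CPM in adipose tissue macrophages (n = 8). It averaged 72.2 ± 76.8 CPM in microglia, 12.4 ± 30.4 CPM in monocytes and 5.30 ± 2.46 CPM in peritoneal macrophages (n = 8 each). The first 4 populations of this order did not differ from their neighbours beyond their spread (edgeR adjusted p from 0.248 to 0.926), adipose tissue macrophages exceeded microglia (adjusted p 0.00601), and microglia exceeded monocytes (0.00592). The mean in monocytes rests on fasted replicate 6 with 87.6 CPM, since the other 7 libraries held at most 3.57 CPM. The sum of Hspa1a and Hspa1b ran in the same order, from 3456 ± 1847 CPM in islet to 5.56 ± 2.74 CPM in peritoneal macrophages. In bulk libraries, more RNA per cell and more cells that carry it cannot be told apart.

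Hspa8, the HSP70 of unstressed cells, and Hsp90ab1, the HSP90 of unstressed cells, had high levels in every population. Hspa8 averaged 6797 ± 1802 CPM in islet macrophages, 3097 ± 1008 CPM in colonic macrophages and 1732 ± 349 CPM in adipose tissue macrophages, each step beyond the spread (adjusted p 0.00199 and 0.00864), and 649 CPM at the lowest, in microglia. Hsp90ab1 averaged 4432 CPM in islet and 2499 CPM in colonic macrophages (adjusted p 0.00349), and between 581 and 946 CPM in the other 5 populations. Hsph1, the HSP110 protein that empties HSP70 and itself holds unfolded proteins, averaged 2479 ± 1064 CPM in islet macrophages, 1109 ± 673 CPM in colonic macrophages and 120 ± 75.4 CPM in Kupffer cells, and between 16.7 and 26.5 CPM in the other 4. The step from colon to Kupffer cells passed (adjusted p 0.00424), and that from islet to colon did not.

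The same populations led for the co-chaperones and the mitochondrial pair. Bag3, a nucleotide exchange factor that links HSP70 to autophagy, averaged 2080 CPM in islet, 477 CPM in colonic and at most 101.2 CPM in the other macrophages and monocytes (islet over colon, adjusted p 1.7e-05). Dnajb1, the HSP40 partner of inducible HSP70, averaged 4410 CPM in islet and 1632 CPM in colonic macrophages (adjusted p 0.0340), 361 CPM in Kupffer cells and 50.4 CPM in peritoneal macrophages, the lowest. Hsp90aa1, the heat-inducible HSP90, averaged 3827 CPM in islet, 2330 CPM in colonic and 582 CPM in Kupffer cells, of which the second step passed (adjusted p 0.000185). Hspd1 averaged 1070 CPM in islet and 328 CPM in colonic macrophages (adjusted p 0.000116), and Hspe1 averaged 510 and 200.4 CPM (0.000757). Each member passed in 13 to 17 of its 21 pairs of populations. The same share over all genes is not given here, so these counts do not set the members apart from other genes. Per kilobase of exon, Hspa8 (1580 CPM per kb), Hsp90ab1 (1478), Dnajb1 (1376) and Hspa1a (1114) led in islet macrophages. In peritoneal macrophages Hsp90ab1 (269) and Hspa8 (203) led too, while Hspa1a stood at 1.79 CPM per kb.

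**Figure D1:**
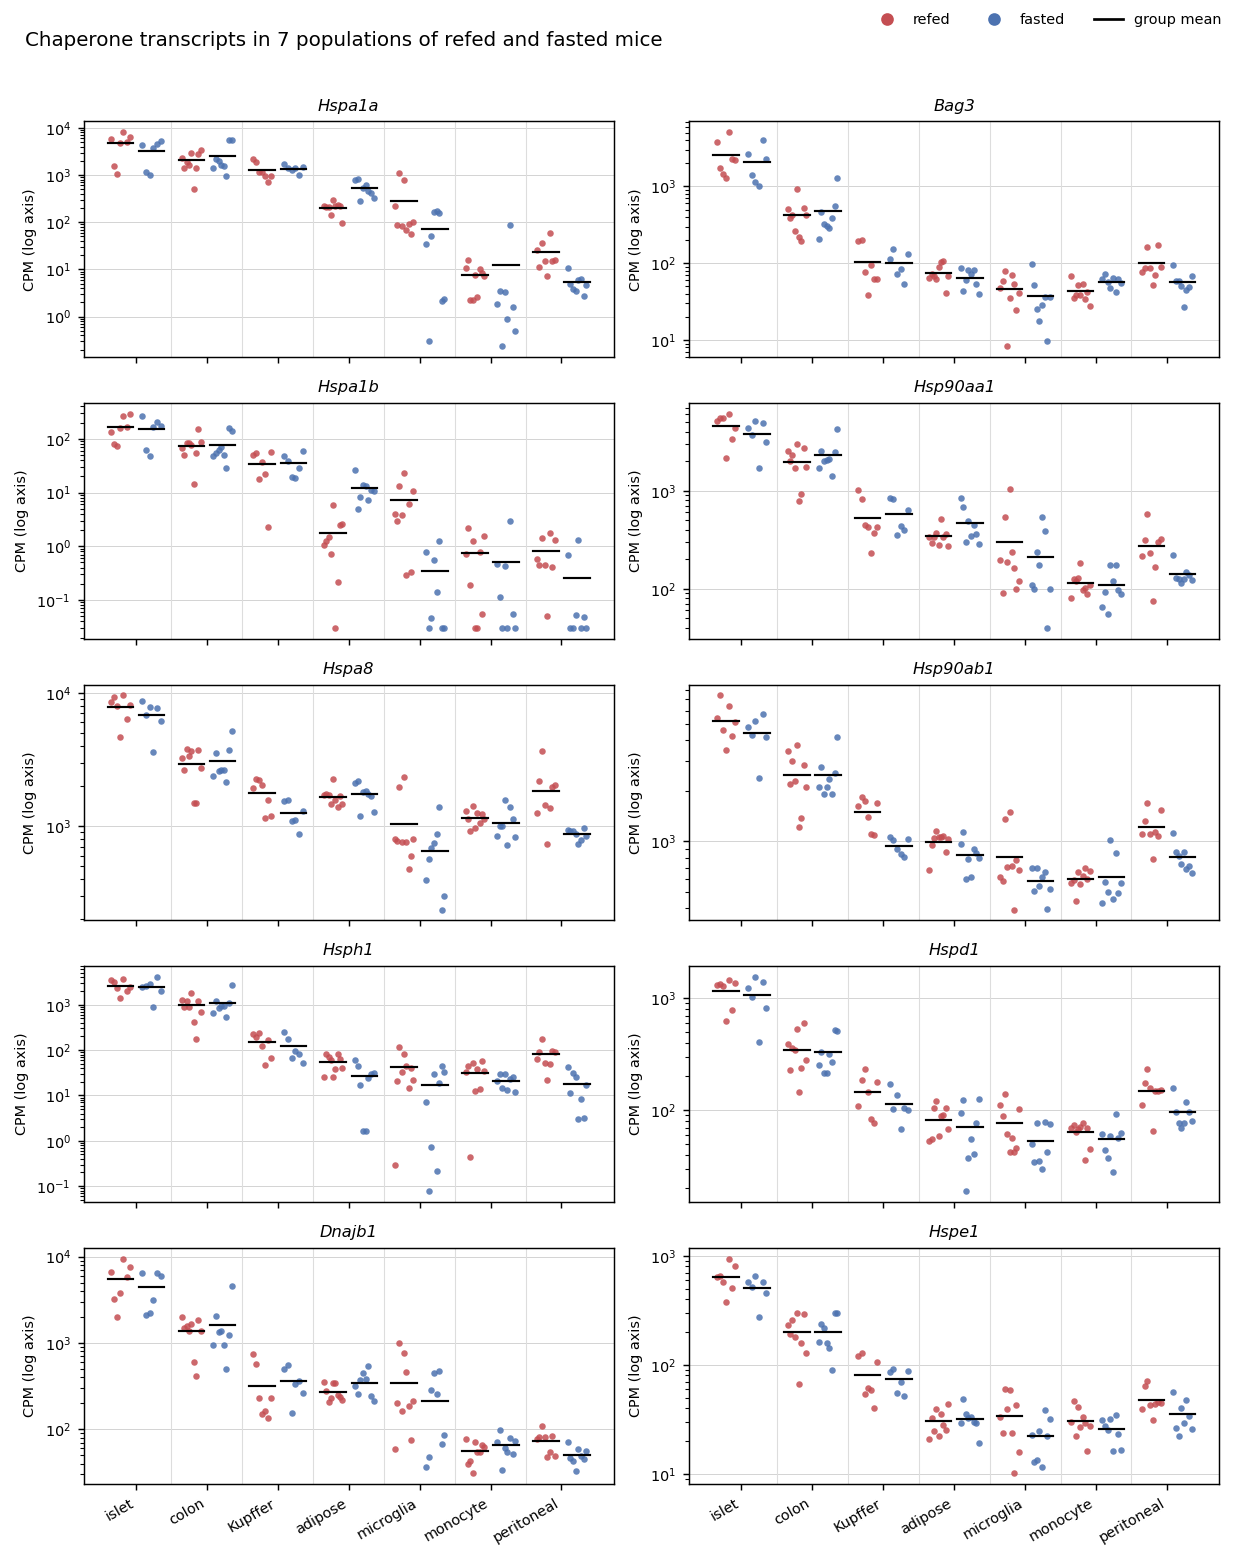
Levels of the 10 members in each library of the refeeding experiment, in CPM on a log axis, with refed libraries in red left of fasted libraries in blue and a black bar at the group mean (Hspa1b at 0 is drawn at 0.03 CPM). By group mean, islet and colonic macrophages stand highest in every panel, and among fasted groups the mean of Hspa1a spans from 3304 CPM in islet to 5.30 CPM in peritoneal macrophages.

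Islet and colonic libraries also held transcripts of other cells, and the level of early stress transcripts varied among populations. In fasted islet libraries the summed level of 6 beta cell markers ran from 937.5 to 3620 CPM and that of 6 acinar cell markers from 142 to 577 CPM, and in fasted colonic libraries that of acinar cell markers ran from 713 to 197611 CPM and that of 6 B cell markers from 23.6 to 36230 CPM. The sum of 16 immediate early genes, such as Fos and Egr1, which dissociation also induces, in fasted libraries ran from 7024 to 39401 CPM in islet, 17500 to 30437 CPM in colonic, 8773 to 16823 CPM in Kupffer cells, 30650 to 52881 CPM in adipose tissue macrophages and 3276 to 42596 CPM in microglia. It ran from 2338 to 4462 CPM in monocytes and from 1437 to 3683.5 CPM in peritoneal macrophages. Every adipose tissue library was above every colonic library in this sum. The part of these transcripts in the levels was not tested. Each population came from its own tissue, so population and isolation cannot be told apart.

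Refeeding for 2 h was followed by higher chaperone transcripts in peritoneal macrophages. All 9 members that passed the filter on low counts were higher in refed than in fasted mice, with a median log2 change of 0.83, while 49.6% of all genes tested were higher. Hsph1 and Hspa8 rose (2 of 9 passed, where 0.432% of 11331 genes passed), and 8 of the 9 had an unadjusted p below 0.05 against 11% of all genes. Hspa1b did not pass the filter, at 0.05 to 1.79 CPM in refed and 0 to 1.29 CPM in fasted libraries.

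Hsph1 stood at 64.7, 89.7, 176, 52.9, 21.7, 48.9, 96.7 and 92.95 CPM in refed replicates 1, 2, 4, 5, 6, 7, 8 and 9, with a median of 77.2 CPM. In fasted replicates 1 to 8 it stood at 41.5, 11.6, 31.01, 25.1, 3.03, 8.47, 3.17 and 17.1 CPM, with a median of 14.3 CPM. In all, 7 of 8 refed libraries lay above every fasted one, and refed replicate 6 lay inside the fasted range. The change was 2.46 ± 0.40 on the log2 scale (SE, adjusted p 0.0158) and was higher in refed mice in 4 of 4 cohorts, by 1.79 to 3.34 within a cohort.

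Hspa8 ran from 734 to 3686 CPM with a median of 1705 CPM in refed libraries, and from 735 to 960 CPM with a median of 896 CPM in fasted libraries. Again 7 of 8 refed libraries lay above all fasted ones, refed replicate 4 was the highest, and refed replicate 6 lay below all of them. The change was 1.02 ± 0.19 (adjusted p 0.0235). Both calls depend on single libraries. Without refed replicate 4 neither passed (Hsph1 0.101, Hspa8 0.114), and Hspa8 also missed without any 1 of refed replicates 2, 5, 8 and 9 or fasted replicates 3, 4, 7 and 8 (0.0511 to 0.0750). Without refed replicate 6, 5 members passed, adding Hspa1a, Hsp90aa1 and Hsp90ab1, and without fasted replicate 1, 4 passed. The share of all genes that passed moved as well, from 0.0781% to 1.03% over the fits with 1 library left out. All 9 members stayed higher in refed mice in each of the 16 fits with 1 library left out.

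Hspa1a, the inducible HSP70 gene that could be tested, had a change of similar size that did not pass. It ran from 7.15 to 59.4 CPM with a median of 15.5 CPM in refed libraries and from 2.80 to 10.6 CPM with a median of 4.77 CPM in fasted libraries, and 7 of 8 refed libraries lay above all fasted ones (2.06 ± 0.48, adjusted p 0.0776). The sum with Hspa1b gave 2.04 ± 0.49 (adjusted p 0.0782).

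The HSP90 genes were higher too without passing. Hsp90ab1 ran from 783 to 1695 CPM with a median of 1124 CPM in refed and from 651 to 1129 CPM with a median of 775 CPM in fasted libraries (0.60 ± 0.13, adjusted p 0.0575). Hsp90aa1 ran from 75.6 to 574 CPM with a median of 267 CPM in refed and from 115.4 to 221 CPM with a median of 127 CPM in fasted libraries (0.91 ± 0.27, adjusted p 0.154). Hsp90aa1 was higher in refed mice in 3 of 4 cohorts and Hsp90ab1 in 4 of 4. The groups of both genes overlapped, with refed replicate 6 the lowest of all 16 libraries for Hsp90aa1.

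Among the partners of HSP70, Bag3 ran from 52.4 to 170 CPM with a median of 87.4 CPM in refed and from 27.0 to 93.99 CPM with a median of 54.2 CPM in fasted libraries (0.83 ± 0.23, adjusted p 0.138). Dnajb1 ran from 47.6 to 109.3 CPM with a median of 79.7 CPM in refed and from 32.7 to 71.7 CPM with a median of 47.7 CPM in fasted libraries (0.54 ± 0.20, adjusted p 0.300). Hspd1 ran from 64.6 to 234 CPM with a median of 149 CPM in refed and from 69.7 to 159 CPM with a median of 88.2 CPM in fasted libraries (0.61 ± 0.22, adjusted p 0.270). In each of these the refed and fasted ranges overlapped, and without refed replicate 4 the change was 0.33 for Dnajb1 and 0.38 for Hspd1.

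**Figure D2:**
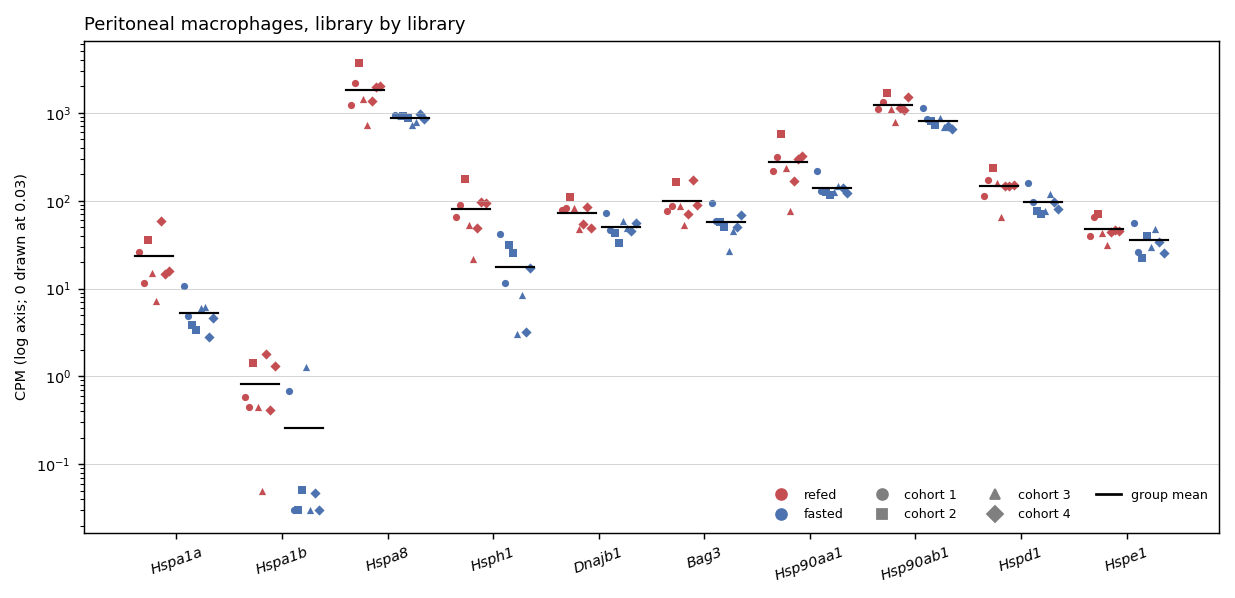
Members in each library of refed (red, left) and fasted (blue, right) peritoneal macrophages, in CPM on a log axis, with the marker shape giving the cohort, a black bar at the group mean and values of 0 drawn at 0.03 CPM. For Hsph1 and Hspa8, 7 of 8 refed libraries lie above all fasted libraries, and refed replicate 6 is the lowest refed library.

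Other parts of the chaperone network were mostly higher in refed peritoneal macrophages too, and 3 genes of them rose. Of all genes tested there, 49.6% were higher, 11% had an unadjusted p below 0.05 and 0.432% passed. Of 18 tested co-chaperones of HSP70 and HSP90, 13 were higher, 9 of them at an unadjusted p below 0.05 and 0 passed, with a median of 0.32. They included Stip1, which carries clients between HSP70 and HSP90 (131 ± 41.1 CPM refed, 64.5 ± 22.3 CPM fasted, log2 0.99, adjusted p 0.0776), and Ahsa1, which speeds the ATPase of HSP90 (107.04 ± 22.7 and 67.6 ± 19.5 CPM, 0.71, adjusted p 0.0776). All 8 subunits of the cytosolic chaperonin TRiC, which folds actin and tubulin, were higher, and Cct6a rose (259.7 ± 50.2 CPM refed, 179 ± 35.7 CPM fasted, 0.57, adjusted p 0.0297). All 15 genes of the list of endoplasmic reticulum chaperones were higher, 11 at an unadjusted p below 0.05. Of these, Herpud1, which is not itself a chaperone (264 ± 63.8 and 155 ± 12.1 CPM, adjusted p 0.00978), and Creld2 (190.0 ± 73.997 and 74.8 ± 20.7 CPM, adjusted p 0.0303) rose.

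The heat shock factor gene Hsf1 averaged 45.4 ± 13.99 CPM in refed and 26.03 ± 9.42 CPM in fasted libraries (log2 0.88, adjusted p 0.0991), and 2 of 3 tested genes of that list were higher, with Hsbp1, which binds and restrains heat shock factor 1, at a log2 change of 0.17. Of the other HSP70 family genes 3 of 6 were higher (median 0.07), of other HSP40 genes 8 of 12 (0.12), of prefoldin subunits 4 of 6 (0.11), of other heat-induced genes 6 of 9 (0.10) and of mitochondrial chaperones and proteases other than the pair 5 of 9 (0.04). In these lists 0 passed, against 0.432% of all genes, of which 49.6% were higher. The largest change by name among them was that of the small heat shock gene Hspb1, at 6.54 ± 3.94 CPM refed and 1.30 ± 0.85 CPM fasted (2.54, adjusted p 0.190). Dnaja1, another HSP40 partner, averaged 155 ± 59.2 CPM refed and 88.99 ± 18.4 CPM fasted (0.80, adjusted p 0.0634), and Dnajc8 of the same family 93.996 ± 4.99 and 115.5 ± 19.5 CPM (-0.33, adjusted p 0.242). The HSP110 gene Hspa4 had a log2 change of 0.19, Hspa14 of 0.13, the prefoldin genes Pfdn2 and Pfdn1 of 0.34 and 0.19, and the small heat shock gene Hspb6 of 0.03, with adjusted p from 0.672 to 0.998. In mitochondria, the HSP70 gene Hspa9 had a change of 0.33 (adjusted p 0.290) and the protease gene Lonp1 of -0.83 (adjusted p 0.512).

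Cirbp and Rbm3, RNA-binding genes that rise with mild cold, were lower in refed mice in all 7 populations, and did not pass in any. They were also lower without the refed libraries described as fasted (Cirbp -0.29 in islet macrophages and -2.10 in Kupffer cells, Rbm3 -0.75 and -1.02). In peritoneal macrophages Cirbp averaged 25.01 ± 31.7 CPM in refed and 73.02 ± 19.2 CPM in fasted libraries (log2 -1.83, adjusted p 0.0935), and Rbm3 157 ± 37.4 and 220 ± 33.6 CPM (-0.52, adjusted p 0.119). The sum of both genes ran from 113.5 to 204 CPM in 7 refed libraries and from 223 to 347 CPM in the fasted libraries, and stood at 327 CPM in refed replicate 6, the library whose chaperone levels were also in or below the fasted range. The part of these transcripts in the chaperone result was not tested. The immediate early genes were higher for 13 of 15 tested (49.6% of all genes), but Egr1 fell (-0.96, adjusted p 0.0493).

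In microglia of refed mice all 10 members were higher than in fasted mice, and 0 passed (0% of 10438 genes passed). Of all genes 49.8% were higher. At an unadjusted p below 0.05 there were 5 of 10 members, against 2.59% of all genes, and the median change was 0.71. Hspa1a ran from 56.9 to 1082 CPM with a median of 93.7 CPM in refed libraries and from 0.307 to 169 CPM with a median of 42.8 CPM in fasted libraries (2.96 ± 0.82, p 0.00221, adjusted p 1 in edgeR). Hspa8 ran from 480 to 2345 CPM with a median of 779 CPM in refed and from 236 to 1381 CPM with a median of 627 CPM in fasted libraries (0.81 ± 0.23, adjusted p 1). The ranges overlap for both, and refed replicates 3 and 5 were far above the others. For Hspa1a, fasted replicates 2, 7 and 8 were near the floor, at 0.307, 2.17 and 2.38 CPM. All 4 cohorts had higher means in refed mice, by 0.52 to 5.19 for Hspa1a and 0.28 to 1.21 for Hspa8. The size of these changes depended on the method: with voom and its quality weights the change was 1.10 for Hspa1a, 0.52 for Hspa8 and 0.35 for Dnajb1, and with no cohort term that of Hspa1a was 1.94.

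Hspa1b in microglia ran from 0.296 to 22.8 CPM with a median of 3.94 CPM in refed and from 0 to 1.27 CPM with a median of 0.0939 CPM in fasted libraries (4.79 ± 1.55). Dnajb1 ran from 59.04 to 999.5 CPM with a median of 201 CPM in refed and from 36.2 to 480.5 CPM with a median of 171 CPM in fasted libraries (0.98 ± 0.33), and the log2 difference of Hsp90ab1 was 0.44 ± 0.19 (adjusted p 1 each). Refed replicates 3 and 5 were again the highest for Hspa1b and Dnajb1. Refed replicates 5 and 6 carried neutrophil markers at 1061 and 1080 CPM in sum. Without both, 0 members passed (0% of 10525 genes), 5 had an unadjusted p below 0.05 and 10 of 10 were higher. The shares of all genes for the last counts were not taken in that fit. With 1 library left out at a time, 4 to 6 members had such a p (2.17% to 2.79% of all genes). The part of neutrophil RNA in the result was not tested. The immediate early sum was 28497 CPM in refed replicate 3 and 46960 CPM in refed replicate 5, within a range of 4717 to 46960 CPM in refed and 3276 to 42596 CPM in fasted microglia, and its part in the result was not tested.

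In adipose tissue macrophages the inducible HSP70 genes stood lower in refed than in fasted mice, without passing. Hspa1a ran from 95.9 to 296 CPM with a median of 216 CPM in refed libraries and from 286 to 835 CPM with a median of 491 CPM in fasted libraries. In all, 8 of 9 refed libraries lay below every fasted library, and the exception was refed replicate 5 at 296 CPM beside fasted replicate 3 at 286 CPM. The change was -1.29 ± 0.20 (p 8e-06, adjusted p 0.0869), lower in refed mice in 4 of 4 cohorts, and the sum with Hspa1b gave -1.31 ± 0.20 (adjusted p 0.0648). It passed in 1 of 17 fits with 1 library left out, that without fasted replicate 2 (adjusted p 0.0400).

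Hspa1b itself ran from 0 to 5.80 CPM with a median of 1.23 CPM in refed and from 5.03 to 26.02 CPM with a median of 10.9 CPM in fasted adipose tissue macrophages (-2.87 ± 1.01, p 0.0116). Hsph1, in contrast, ran from 25.4 to 83.7 CPM with a median of 61.4 CPM in refed and from 1.63 to 61.6 CPM with a median of 27.3 CPM in fasted libraries (1.25 ± 0.57, p 0.0431, adjusted p 0.954), higher in 3 of 4 cohorts. The 10 members had no common direction in adipose tissue macrophages: 4 were higher (49.8% of all genes), 3 had an unadjusted p below 0.05 (5.16% of all genes), 0 passed (0% of 10924 genes) and the median was -0.04. Immediate early sums overlapped, from 35720 to 49991 CPM in refed and from 30650 to 52881 CPM in fasted libraries. Mesothelial and fibroblast markers summed to between 78.4 and 1027 CPM in refed and between 2.03 and 515 CPM in fasted libraries, and their part in the result was not tested.

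**Figure D3:**
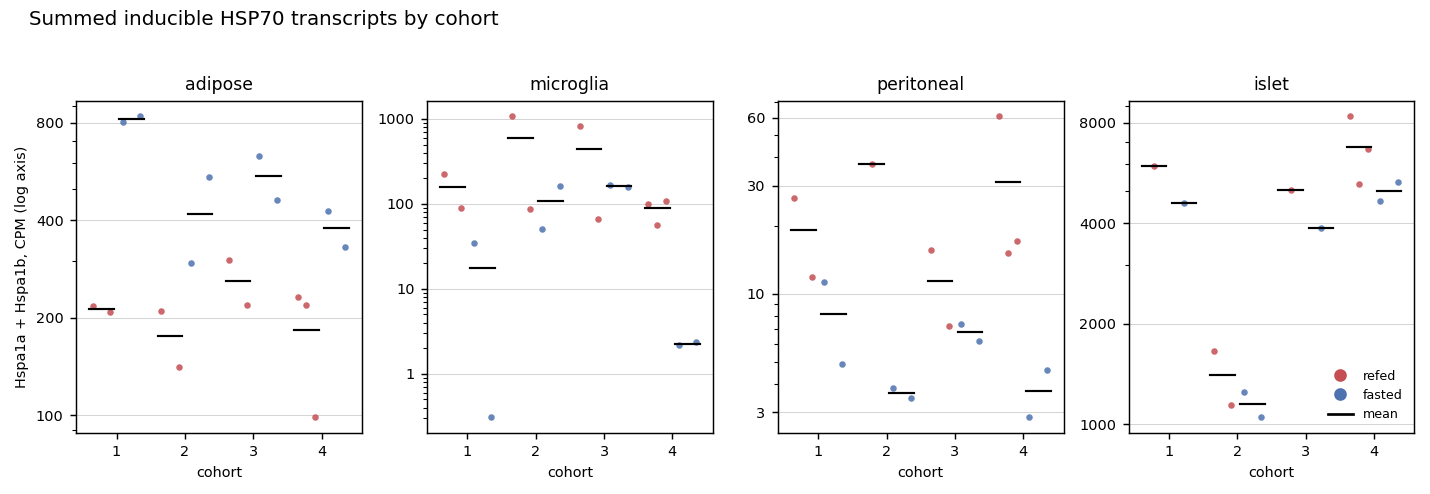
Sum of Hspa1a and Hspa1b by cohort in adipose tissue macrophages, microglia, peritoneal macrophages and islet macrophages, in CPM on a log axis, with refed libraries in red left of fasted libraries in blue and a black bar at the mean of each. Within each of the 4 cohorts the mean is lower in refed adipose tissue macrophages and higher in refed microglia, peritoneal and islet macrophages. Without the refed libraries described as fasted, islet cohort 1 has no refed library, and the log2 difference in islet cohort 2 is 0.0028.

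In Kupffer cells Hsp90ab1 and Hspa8, the members of unstressed cells, stood higher in refed mice, without passing. Hsp90ab1 ran from 1090 to 1851 CPM with a median of 1633 CPM in 7 refed libraries and from 809 to 1067 CPM with a median of 964 CPM in 6 fasted libraries, so the groups did not overlap (0.69 ± 0.14, p 0.000276, adjusted p 0.788), as for 0.215% of all genes tested. It was higher in 3 of 3 cohorts. The refed libraries of cohort 1 are the 2 described as fasted, and without them the change was 0.67 ± 0.19, higher in both cohorts left. Hspa8 ran from 1151 to 2245 CPM with a median of 1937 CPM in refed and from 867 to 1583 CPM with a median of 1200 CPM in fasted Kupffer cells (0.54 ± 0.15, p 0.00343), with a change of 0.60 ± 0.20 without those libraries. In all, 5 of 10 members were higher (46.8% of all genes), 2 had an unadjusted p below 0.05 (3.27% of all genes) and 0 passed (0% of 11635 genes). Without those libraries 4 were higher (46.7% of all genes), 2 had an unadjusted p below 0.05 (3.52% of 11648 genes) and 0 passed (0% of all genes).

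In islet macrophages all 10 members were higher in refed mice, by small amounts. The log2 changes lay between 0.11 and 0.36 with a median of 0.23, 52.9% of all genes were higher, 1 member had an unadjusted p below 0.05 (2.42% of all genes) and 0 passed (0% of 10059 genes). That member was Hspa1a, which ran from 1074 to 8139 CPM with a median of 5083 CPM in refed and from 1002 to 5155 CPM with a median of 4016 CPM in fasted libraries (0.36 ± 0.13, p 0.0138). Most of that range was between cohorts, since the cohort 2 libraries held 1002 to 1581 CPM and the others 3708 to 8139 CPM. The difference was 0.26 to 0.42 within each of 4 cohorts, of which cohorts 1 and 3 hold 1 refed and 1 fasted library each. Without the refed libraries described as fasted, cohort 1 has no refed library, Hspa1a was higher in 2 of the 3 cohorts left (-0.02 to 0.42), and the change was 0.30 ± 0.16 (p 0.0829). In that fit 9 of 10 members were higher (49.8% of all genes), 0 had an unadjusted p below 0.05 (2.34% of all genes) and 0 passed.

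Colonic macrophages and monocytes showed no member at an unadjusted p below 0.05 (2.59% and 2.65% of all genes), and 0 members passed (0% of 11856 and of 10503 genes). In colonic macrophages 3 of 10 members were higher after refeeding (50% of all genes, median log2 change -0.07). Hspa1a averaged 2048 ± 919 CPM in 9 refed and 2562 ± 1809 CPM in 8 fasted libraries. Fasted replicates 7 and 8, both of cohort 4, held 5448 and 5425 CPM, and the other fasted libraries 947 to 2138 CPM. By cohort, Hspa1a was higher in refed mice in 3 of 4, with log2 differences from -1.19 to 0.05. Hsph1, Hsp90ab1, Dnajb1, Bag3 and Hspe1 were also higher in 3 of 4 cohorts, Hspa1b, Hspa8 and Hspd1 in 2 and Hsp90aa1 in 1. In monocytes 7 of 9 tested members were higher (48.2% of all genes, median 0.16), and Hspa8 averaged 1156 ± 160.2 CPM in refed and 1064 ± 291 CPM in fasted libraries. The SE of the log2 change of Hspa1a was 0.31 in colonic macrophages and 1.19 in monocytes, and that of Hspa8 was 0.22 and 0.14.

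Whether the refeeding change itself differed among the 7 populations was tested in a joint fit. There 0 of 10 members passed (0.0268% of 18640 genes passed), with the smallest adjusted p for Hspa1a and Hspa1b (0.0515 each) and Hspa8 (0.0658). Each population was also set against the mean of the other 6, and 0 passed (0.0169% of 130480 pairs of gene and population passed). In microglia the log2 difference was 4.59 for Hspa1b (adjusted p 0.0541), 2.74 for Hspa1a (0.0831) and 1.05 for Dnajb1 (0.187). In adipose tissue macrophages it was -4.22 for Hspa1b (0.133) and -2.31 for Hspa1a (0.233), and in peritoneal macrophages 0.77 for Hspa8 (0.424). Without the refed libraries described as fasted, 0 members passed in either test (0.0417% of all genes in the first, 0.0179% of pairs in the second). The smallest adjusted p was again that of Hspa1a (0.0692), Hspa1b (0.0706) and Hspa8 (0.0955) and, in microglia against the others, that of Hspa1b (0.0654). A response to refeeding that differs between populations was not shown for any member at this threshold.

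**Figure D4:**
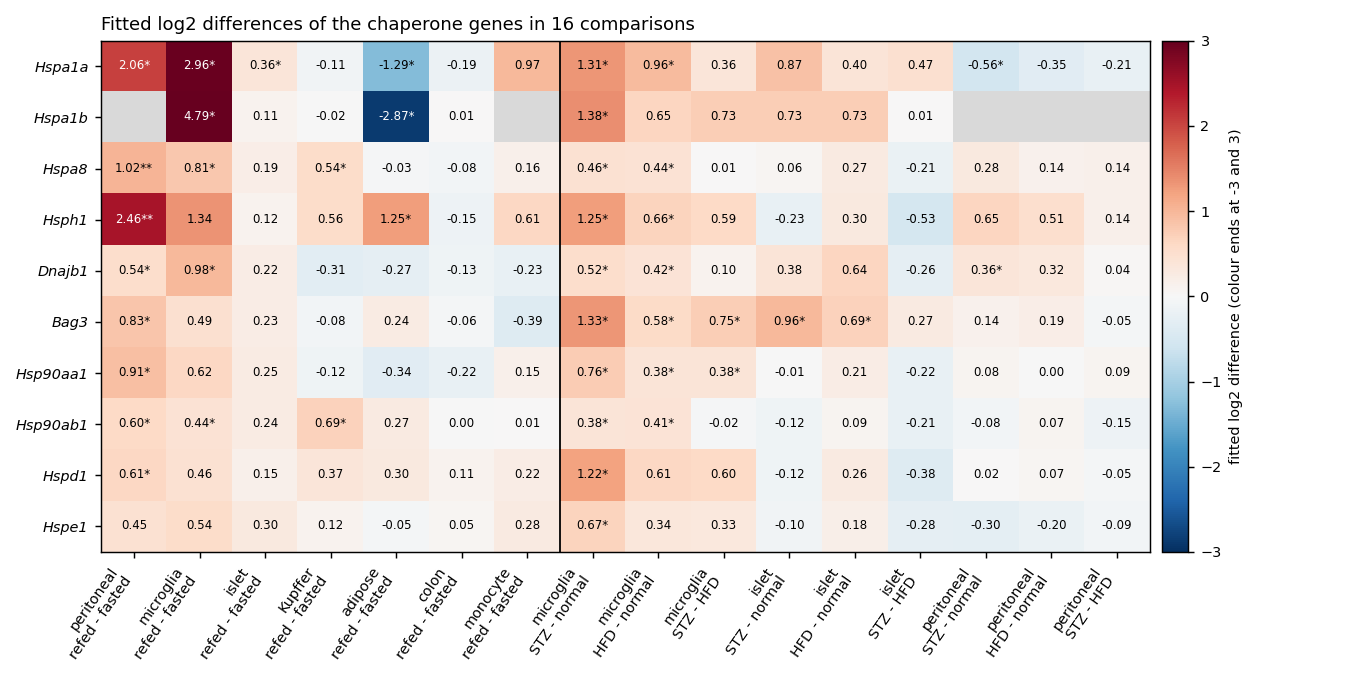
Heat map of the log2 change of each member in the 7 refeeding comparisons and the 9 diet comparisons, with positive values for higher levels in refed mice, in STZ or HFD mice against normal diet, or in STZ against HFD. A double asterisk marks an adjusted p below 0.05, a single asterisk an unadjusted p below 0.05, and grey a gene under the filter on low counts. Double asterisks stand at Hsph1 and Hspa8 in peritoneal macrophages after refeeding, and the column of single asterisks for STZ against normal diet in microglia covers all 10 members.

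In the diet experiment, microglia of STZ mice had higher levels of all 10 members than microglia of mice on normal diet, and 0 passed (0% of 13972 genes passed, smallest adjusted p 0.874 for Hspa1a). All 10 members had an unadjusted p below 0.05 and were higher, against 2.15% of all genes with such a p in either direction, with a median change of 0.99, while 48.4% of all genes were higher. HFD alone gave 10 of 10 higher (53.8% of all genes) and 7 with an unadjusted p below 0.05 (3.16% of all genes), with a median of 0.51. For HFD, too, 0 passed (0% of all genes). Both comparisons use the same 4 normal-diet libraries. STZ replicate 2_9 is the only library of its cohort, so with the cohort in the fit it adds nothing to the change, which rests on the other 3 STZ libraries.

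Hspa1a stood at 1957, 2264, 1749 and 2737 CPM in STZ replicates 1_4, 2_9, 3_13 and 3_15, at 2718, 1863, 1296 and 1434 CPM in HFD replicates 1_2, 1_3, 3_14 and 3_16, and at 1017, 1085, 868 and 686 CPM in normal-diet replicates 1_5, 1_6, 3_17 and 3_18. Every STZ and every HFD library lay above every normal-diet library. The change was 1.31 ± 0.21 for STZ and 0.96 ± 0.20 for HFD against normal diet. Within cohort 6 it was 0.90 for STZ and 1.10 for HFD, and within cohort 8 it was 1.504 and 0.82.

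Hspa8 separated in the same way, with 3808, 3976, 3354 and 3827 CPM in STZ, 4657, 3618, 3127 and 3470 CPM in HFD, and 2728, 2938, 2527 and 2538 CPM in normal-diet microglia. The change was 0.46 ± 0.10 for STZ and 0.44 ± 0.09 for HFD. Its range within a group was narrow beside that of Hspa1a. Hsph1 stood at 195, 309.5, 180 and 379 CPM in STZ, 202, 185, 118.4 and 179 CPM in HFD, and 112.5, 121, 122 and 71.5 CPM in normal-diet microglia, so that STZ and normal diet did not overlap and HFD and normal diet did. Its change was 1.25 ± 0.29 for STZ and 0.66 ± 0.27 for HFD.

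Bag3 stood at 230, 136, 163 and 248 CPM in STZ, 207, 127, 108.8 and 120 CPM in HFD, and 112.5, 147, 62.4 and 62.7 CPM in normal-diet microglia. Normal-diet replicates 3_17 and 3_18 of cohort 8 were the lowest of all, and the groups overlapped (STZ 1.33 ± 0.24, HFD 0.58 ± 0.22). Hsp90aa1 stood at 1582, 1280, 1024 and 1341 CPM in STZ, 1582, 1091, 839 and 868 CPM in HFD, and 861, 1116, 658 and 662 CPM in normal-diet microglia (STZ 0.76 ± 0.14, HFD 0.38 ± 0.13). These were the only members with an unadjusted p below 0.05 between STZ and HFD, at 0.75 ± 0.24 for Bag3 and 0.38 ± 0.14 for Hsp90aa1 (4.77% of all genes, 0% passed). In that comparison 9 of 10 members were higher in STZ (46% of all genes). These counts depend on single libraries: with 1 library left out, 0 to 4 members had such a p (3.25% to 5.92% of all genes) and 7 to 10 were higher. Without STZ replicate 3_15 there were 0, at 0.49 for Bag3 and 0.25 for Hsp90aa1, and Bag3 stood at 0.47 with no cohort term.

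Dnajb1 stood at 1838, 2779, 1571 and 2101 CPM in STZ microglia and between 1163 and 1480 CPM in normal-diet microglia (0.52 ± 0.15). Hspd1 stood at 121, 142, 98.1 and 140 CPM in STZ and 76.2, 85.4, 9.52 and 56.4 CPM in normal-diet microglia (1.22 ± 0.51), where the value of 9.52 CPM in replicate 3_17 stands apart (0.74 without that library). With Hspa1a, Hspa8, Hsph1 and Hsp90ab1, these make 6 of 10 members whose STZ and normal-diet libraries did not overlap, as for 1.2% of all genes tested. Between HFD and normal diet 2 members, Hspa1a and Hspa8, did not overlap, as for 2.61% of all genes. Leaving out 1 library at a time, 6 to 10 members had an unadjusted p below 0.05 for STZ (1.78% to 3.19% of all genes) and 4 to 7 for HFD (2.83% to 4.11%), all 10 stayed higher, and 0 passed. The count of 6 was without STZ replicate 3_15, where the change for STZ was 0.80 for Hsph1, 0.91 for Hspa1b, 0.22 for Hsp90ab1 and 0.41 for Hspe1, against 1.25, 1.38, 0.38 and 0.67 with it. For HFD, Hsp90ab1 and Dnajb1 stood at 0.26 and 0.28 without HFD replicate 1_2, against 0.41 and 0.42 with it, and Bag3 at 0.37 with voom.

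**Figure D5:**
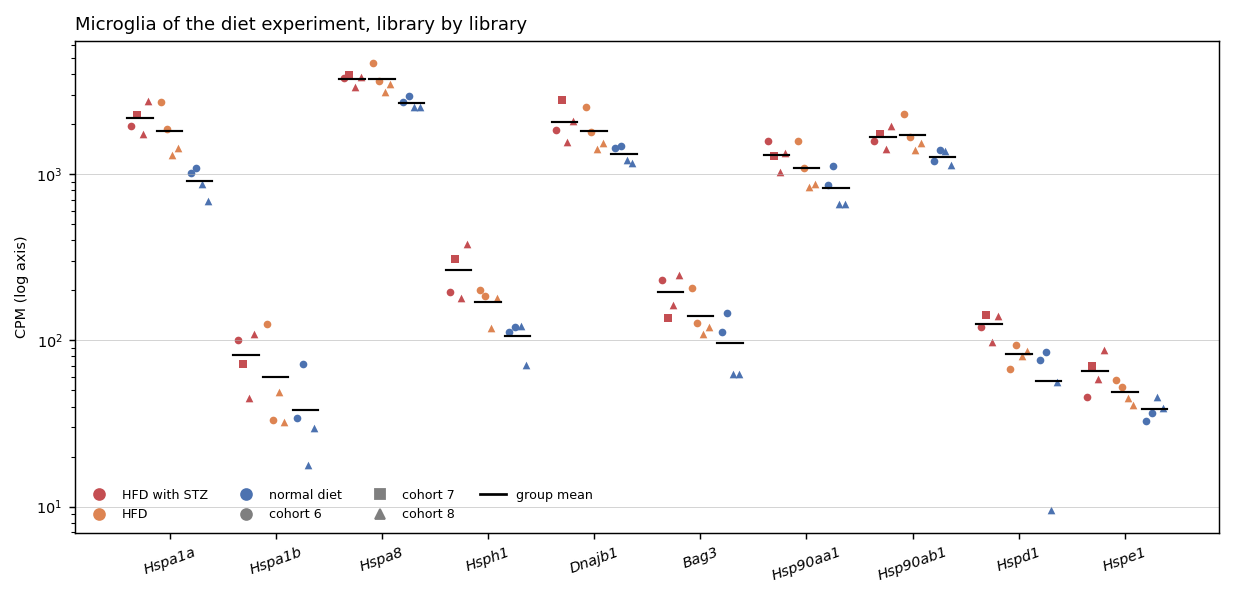
Members in each microglia library of the diet experiment, in CPM on a log axis, with STZ in red, HFD in orange and normal diet in blue from left to right, the marker shape giving cohorts 6, 7 and 8, and a black bar at the group mean. For Hspa1a every STZ library (1749 to 2737 CPM) and every HFD library (1296 to 2718 CPM) lies above the normal-diet libraries (686 to 1085 CPM).

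Other lists of the chaperone network were counted in the same comparison of STZ with normal-diet microglia, in which 48.4% of all genes were higher and 2.15% had an unadjusted p below 0.05. Of 19 co-chaperones 10 were higher, as were 8 of 15 genes of the endoplasmic reticulum list and 7 of 8 chaperonin subunits, with 0 at such a p in these lists. Of 13 other HSP40 genes 8 were higher, 2 of them at such a p, and 0 passed in any of these lists. The immediate early sum was 56516 to 62633 CPM in STZ, 58780 to 71120 CPM in HFD and 53821 to 58595 CPM in normal-diet libraries, so every HFD library lay above every normal-diet library. Of 16 immediate early genes, 10 were higher in STZ and 13 in HFD than on normal diet (48.4% and 53.8% of all genes). The part of this sum in the chaperone result was not tested.

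In islet macrophages of the diet experiment, Bag3 was the only member with an unadjusted p below 0.05 in edgeR against normal diet, and it did not pass. It stood at 340, 717 and 1635 CPM in STZ, 195, 371, 397 and 1537 CPM in HFD and 127, 127, 489 and 757 CPM in normal-diet libraries, which overlap. Within the fit, which takes the cohort into account, the change was 0.96 ± 0.27 for STZ (p 0.00506, adjusted p 0.736, higher in 3 of 3 cohorts) and 0.69 ± 0.24 for HFD (p 0.018, 3 of 4 cohorts). Of the 10 members 5 were higher in STZ and 10 in HFD than on normal diet (43.8% and 58% of all genes), 1 had an unadjusted p below 0.05 in each (5.66% and 2.42% of all genes) and 0 passed (0% of 12406 genes). Between STZ and HFD, 3 of 10 members were higher in STZ (37.2% of all genes), with a median log2 change of -0.22 and 0 at an unadjusted p below 0.05 (4.99% of all genes). Single libraries moved these counts. With 1 library left out, 0 to 5 members had such a p between STZ and HFD, 0 to 4 between HFD and normal diet and 1 to 2 between STZ and normal diet, where 4 to 8 were higher. The counts of 5 and 4 were both without HFD replicate 4 (3.1% and 1.39% of all genes).

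In peritoneal macrophages of the diet experiment the median log2 change of the members was 0.08 for STZ and 0.07 for HFD against normal diet. For STZ the changes lay between -0.56 for Hspa1a and 0.65 for Hsph1, which was higher in 3 of 5 cohorts. With HFD 6 of 9 tested members were higher than on normal diet (48.1% of all genes). Against HFD, 4 of 9 were higher in STZ (50.1%). In both, 0 had an unadjusted p below 0.05 (3.54% and 8.08% of all genes) and 0 passed (0% of all genes). Dnajb1 stood at 60.8, 60.7, 75.3, 68.5 and 88.1 CPM in STZ, 45.0, 65.1, 56.3 and 107.4 CPM in HFD and 43.3, 45.3, 71.5, 44.9 and 74.8 CPM in normal-diet libraries (STZ against normal diet 0.36 ± 0.15, adjusted p 0.227), and was higher in 5 of 5 cohorts. Hspa1a stood at 3.00, 5.82, 7.18, 3.24 and 28.97 CPM in STZ, 3.09, 6.44, 3.00 and 48.7 CPM in HFD and 3.81, 4.59, 9.48, 5.49 and 73.8 CPM in normal-diet libraries (-0.56 ± 0.24, p 0.0342), and was higher in STZ in 1 of 5 cohorts. This difference was -0.36 without STZ replicate 5, -0.87 with voom and -1.02 without the cohort term. In all 3 groups the highest Hspa1a library belonged to cohort 5. Of 9 tested members 6 were higher in STZ, 2 had an unadjusted p below 0.05 against 19.6% of all genes, and 0 passed against 1.29% of 13225 genes. With 1 library left out, 5 to 8 were higher and 0 to 3 had such a p (16.1% to 20.4% of all genes).

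Elsewhere in the network, 2 genes passed in this comparison. Fkbp5, an HSP90 partner induced by glucocorticoids, rose in STZ mice (10.2 ± 5.65 CPM, against 1.71 ± 0.49 CPM on normal diet, log2 2.37 ± 0.47, adjusted p 0.0310), and Rgs2, a regulator of G protein signalling listed with the heat-induced genes, fell (67.4 ± 33.5 CPM, against 188 ± 82.9 CPM, -1.51 ± 0.33, adjusted p 0.0451). Beside these, monocyte markers summed to between 435 and 677 CPM in STZ, 187 and 273 CPM in HFD and 209 and 306 CPM in normal-diet libraries, and the part of such cells in the results was not tested. Whether diet effects differed among the 3 populations was tested jointly, and 0 of 10 members passed (0.992% of 17230 genes passed).

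Once the mean of each population, treatment and cohort was taken off, the members still varied together to different degrees over the 110 refeeding libraries. Pearson correlations of log2 CPM, given as a description since libraries share scaling and depth, were highest between Hspa8 and Hsp90ab1 (0.743), Hspa8 and Hsp90aa1 (0.709) and the HSP90 genes (0.708), followed by Hsp90ab1 and Hspe1 (0.661), Hsp90ab1 and Hspd1 (0.608), Dnajb1 and Bag3 (0.605), Hspa8 and Dnajb1 (0.600) and Hspa1a and Hspa1b (0.580). Hspa1b and Bag3 were the least alike (0.0488). Among 8279 other genes, those most like the sum of Hspa1a and Hspa1b included Ahsa1 (0.569), Atpaf2 (0.551), Sord (0.533), Gnptg (0.479), Rnf34 (0.466), Commd6 (0.447) and Shmt2 (0.434). Those most like Hsph1 were Rhob (0.540), Parp12 (0.513), Sap30 (0.500), Atp6v0d1 (0.479), Edem1 (0.476), Banp (0.466), Mkln1 (0.465) and Tbc1d20 (0.457), and none was in both lists.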

How the data were processed

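Both experiments were deposited as raw read counts per gene and library. Per the labels' protocols, polyA RNA of sorted cells, isolated with a PicoPure kit, was made into Smart-seq2 libraries, which carry no molecular identifiers, so every test uses the spread between libraries. Per the submitters' processing notes the authors used Trimmomatic 0.36, STAR 2.5.1a, featureCounts and mm10. The sources used here do not give the annotation release, strand setting or handling of multiply mapped reads. Of 50686 versioned Ensembl identifiers, 50376 matched a symbol once the version was dropped.

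Every comparison within a population used edgeR 4.0.16 (R 4.3.3) with filterByExpr, scaling by the trimmed mean of M values, robust quasi-likelihood F tests with the cohort as a term, and Benjamini-Hochberg adjustment over all genes tested. The SE is the size of the log2 change divided by the square root of F. The 3 diet groups of a population shared a fit, joint fits tested differences among populations, and Hspa1a and Hspa1b were also fitted as a sum. Levels are CPM, given over libraries. The members, gene lists and tests were chosen with earlier results of these data known. All 10 members were named, with a fold change where the unadjusted p was below 0.05. From each other list the genes that passed were named, and otherwise the 2 with the smallest p in refed against fasted peritoneal macrophages. Stip1 and Ahsa1 were named after their values were seen. The 8 genes most like a member were ranked by correlation over 110 libraries, and 1 of them is not reported here. Alternatives were RLE scaling, no filter, voom with quality weights (limma 3.58.1), DESeq2 1.42.0, no cohort term, the replicate number as a block, a random animal block in the joint fits and leaving out libraries. The scripts were tested on simulated data. Of 443 within-group library pairs 0 were identical, and the lowest chi-square per degree of freedom was 17.6. In the islet and peritoneal diet libraries the replicate number is the labelled cohort, so the main fit is already blocked on it.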

Additional observations from a re-analysis of the deposited data

Results flagged for a closer look

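Of 220 groups of 4 to 9 libraries examined for a member, 13 had a highest or lowest library set apart from the rest of its group on the log2 scale, where chance alone sets apart about 1 in 20.

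Among the inducible HSP70 genes, Hspa1a stood at 87.6 CPM in fasted monocyte replicate 6, with the next library at 3.57 CPM, and at 514 CPM in refed colonic replicate 6, with the next at 1393 CPM. The same colonic library was the lowest for Hspa1b, at 14.2 CPM against 50.2 CPM for the next. Hspa1b stood at 2.25 CPM in refed Kupffer replicate 8 (next 17.998 CPM) and at 1.31 CPM in STZ peritoneal replicate 5 (next 0.185 CPM).

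Hsph1 was the lowest by a wide gap in refed microglia replicate 1, at 0.292 CPM (next 14.7 CPM), in refed monocyte replicate 3, at 0.443 CPM (next 12.6 CPM), and in normal-diet microglia replicate 3_18, at 71.5 CPM (next 112.5 CPM). Refed monocyte replicate 3 was also the lowest for Hsp90ab1, at 443 CPM (next 557 CPM).

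Hsp90ab1 was low in fasted islet replicate 5_6, at 2385 CPM (next 4177 CPM). Hsp90aa1 was high in refed adipose replicate 6, at 518.7 CPM (next 368 CPM), and in fasted peritoneal replicate 1, at 221 CPM (next 148 CPM), and Hspa8 in refed adipose replicate 5, at 2274 CPM (next 1730 CPM).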

How the results depend on the processing

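Of 42 results for single members, 524 of 542 values with 1 library left out and 196 of 237 values under other settings kept their direction and their side of the threshold, and none reversed. Among the rest, 8 and 38 became called and 10 and 3 lost the call. The cause was not tested. Each count of members that follows stands beside the share of all genes called under the same setting. In refed against fasted peritoneal macrophages, where 2 members passed (0.432%), 7 passed with no filter on low counts (1.32%), 6 with DESeq2 (3.73%), and between 0 and 5 with 1 library left out (0.0781% to 1.03%). In adipose tissue macrophages, where 0 passed, 1 did with no filter (0.411%), 1 with voom (0.0458%), 2 with DESeq2 (4.54%), and 0 to 1 with 1 library left out (0% to 0.0627%). In Kupffer cells 1 passed with voom (0.138%) and 1 with DESeq2 (2.29%), and in microglia 2 with no filter (0.0537%) and 3 with DESeq2 (8.97%). In the diet experiment DESeq2 called 1 member for STZ in islet macrophages (9.77%) and voom 1 for STZ in peritoneal macrophages (6.62%). In microglia, no filter gave 6 members for STZ (0.0418%) and 1 for HFD (0.125%), and DESeq2 gave 5 (0.827%) and 2 (0.526%). For a refeeding effect that differs among populations, no filter gave 6 members (2.2%) and voom with a random animal block 1 (1.14%), and for each population against the others these gave 12 (0.368%) and 2 (0.182%) pairs of member and population. Microglia libraries with neutrophil or B cell RNA were left out after seeing the data. So were, in the joint fits, the 4 refed libraries described as fasted. The counts of members stayed at 0 (0% of all genes in microglia, 0.0417% and 0.0179% in the joint fits).

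With the replicate number as a block, 0 members passed in peritoneal macrophages (0% of all genes) and 0 in the other 6 refeeding comparisons. Same-numbered refed and fasted libraries had a mean correlation of deviations between -0.003 and 0.067, so in that experiment the design shows only a shared number. In islet macrophages 8 of 12 libraries correlated best with their own number, a hint from the data, and in the other populations 2 to 4 of 12 to 16 did. In the islet and peritoneal diet comparisons, leaving out the replicate block moved no count from 0.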

Other observations

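The populations present in both experiments held different chaperone levels at their reference states. Hspa1a ran from 686 to 1085 CPM in normal-diet microglia (5000 cells each) and from 0.307 to 169 CPM in fasted microglia (400 cells), so that the lowest normal-diet library lay above the highest fasted one. In islet macrophages the order was the other way: Hspa1a ran from 71.7 to 376 CPM in normal-diet libraries and from 1002 to 5155 CPM in fasted libraries, at 400 cells each. In peritoneal macrophages Hspa1a ran from 3.81 to 73.8 CPM on normal diet and from 2.80 to 10.6 CPM in fasted mice. The experiments differ in feeding state, cell number, cohort and scaling, which cannot be told apart, and no test was made.

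Immediate early genes did not follow in the same proportion. Their summed level ran from 53821 to 58595 CPM in normal-diet and from 3276 to 42596 CPM in fasted microglia, and from 4026 to 5594 CPM in normal-diet and from 7024 to 39401 CPM in fasted islet macrophages.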
